A study of Homo sapiens with 2 samples.

Results

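Among MDA-MB-453 cells exposed to IL1β and TNFα, 364 of 3163 cells (11.5%) still carried a deposited cell cycle call of S or G2M. These cells, 324 called S and 40 called G2M, were taken by their library and by the phase deposited for each cell, out of 5985 cells in both libraries. They were described gene by gene against the 2799 cells of the same library called G1, and beside vehicle cells of the same phases. MDA-MB-453 is an established human breast cancer line, which the study labels as triple-negative and wild type. A culture was given IL1β and TNFα at 10 ng/ml for 24 h before 10x Genomics 3′ single-cell RNA sequencing, and the other culture was given water as vehicle for the same time. Both conditions shared the same DMEM medium with serum. Each condition was 1 library, so cells of a library share their culture and are not replicates. No test of the treatment or of phase was therefore possible, no p-value is given, and every interval covers counting error only.

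IL1β and TNFα are inflammatory cytokines that activate NF-κB, a transcription factor family whose targets include its own inhibitor NFKBIA, chemokines, and acute-phase and antimicrobial proteins. A dividing cell copies its DNA in S phase, with genes for replication and nucleotide supply switched on by E2F factors late in G1. Genes for chromosome segregation are switched on later, in G2 and mitosis, largely through promoters that hold a CHR element and CCAAT boxes, which are bound by the DREAM, B-MYB, FOXM1 and NF-Y factors. TDO2, KMO and KYNU encode enzymes of the kynurenine pathway, which degrades tryptophan.

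The 4 promoters printed here were picked from the genes with the 8 highest ratios over treated G1 cells in each phase. Other genes ranked above E2F1 in S and above ASPM and PLK1 in G2M. PLK1, a mitotic kinase, PIF1, a DNA helicase, and ASPM, a spindle pole protein, were high in G2M, while E2F1, the transcription factor of the G1 to S step, was high in S. Each is 250 bases before to 50 bases after the RefSeq start, on the gene's strand, from GRCh38.p14. PLK1 lies at chr16:23678639-23678938 (plus strand), PIF1 at chr15:64825598-64825897 (minus strand), ASPM at chr1:197146620-197146919 (minus strand) and E2F1 at chr20:33686336-33686635 (minus strand). Capitals mark CHR letters (TTTGAA or TTCGAA) and CCAAT on either strand in PLK1, PIF1 and ASPM, and E2F letters (TTTCCCGC or TTTGGCGC) on either strand in E2F1, where CCAAT letters were left in lower case.
PLK1: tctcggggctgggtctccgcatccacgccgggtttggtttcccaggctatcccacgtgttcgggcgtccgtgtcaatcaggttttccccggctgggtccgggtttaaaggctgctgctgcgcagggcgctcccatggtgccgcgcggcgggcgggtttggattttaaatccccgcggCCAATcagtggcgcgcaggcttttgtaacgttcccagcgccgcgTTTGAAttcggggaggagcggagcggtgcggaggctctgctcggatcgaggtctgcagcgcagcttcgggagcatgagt
PIF1: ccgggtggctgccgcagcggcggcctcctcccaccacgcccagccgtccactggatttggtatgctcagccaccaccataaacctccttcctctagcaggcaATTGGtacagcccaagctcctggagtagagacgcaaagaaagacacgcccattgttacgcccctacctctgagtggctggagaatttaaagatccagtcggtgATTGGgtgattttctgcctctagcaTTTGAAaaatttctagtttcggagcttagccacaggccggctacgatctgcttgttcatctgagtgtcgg
ASPM: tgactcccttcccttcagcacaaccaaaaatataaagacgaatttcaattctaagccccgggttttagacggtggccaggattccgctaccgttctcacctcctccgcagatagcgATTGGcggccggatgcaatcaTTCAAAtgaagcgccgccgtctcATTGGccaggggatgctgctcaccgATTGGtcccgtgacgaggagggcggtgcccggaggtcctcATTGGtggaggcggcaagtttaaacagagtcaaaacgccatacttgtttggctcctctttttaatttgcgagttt
E2F1: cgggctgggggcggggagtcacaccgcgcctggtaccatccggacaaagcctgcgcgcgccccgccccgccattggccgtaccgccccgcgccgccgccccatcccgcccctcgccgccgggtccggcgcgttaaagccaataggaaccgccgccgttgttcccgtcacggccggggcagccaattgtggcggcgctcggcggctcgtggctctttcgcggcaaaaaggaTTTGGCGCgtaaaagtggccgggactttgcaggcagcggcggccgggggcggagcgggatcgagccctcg

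The CHR letters stood 29 bases before the start in PLK1, 20 bases before it in PIF1 and 113 bases before it in ASPM, and the E2F letters stood 20 bases before the start of E2F1. Over the list of 60 mitosis genes used throughout, 53 matched a RefSeq promoter of the same length and 37 of them (69.8%) held CHR letters, against 16.6% of all 27305 promoters. Of the 50 replication genes 44 matched, and 3 (6.82%) held CHR letters. The E2F letters were in 13 of the 44 replication promoters (29.5%) and in 3 of the 53 mitosis promoters (5.66%), against 2.31% of all promoters. CCAAT, which overlaps neither other motif, was in 36 of the mitosis promoters (67.9%) and 22 of the replication promoters (50%), against 35.7% of all. A match of letters describes the sequence and says nothing of binding.

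Sequencing depth was similar in the groups compared. Summed UMIs, the molecules counted per gene, came to 7212661 in treated S, 827443 in treated G2M and 61552342 in treated G1 cells, against 27339863 in vehicle S, 11196572 in vehicle G2M and 20051561 in vehicle G1 cells. Median UMIs per cell lay between 20536.5 and 22420.5 in the treated phases, against 18486 to 21756 in the vehicle phases. Median mitochondrial shares lay between 6.18% and 6.56% in the 6 groups, and ribosomal protein genes took 27.3% of UMIs in treated S, 24.2% in treated G2M and 26.9% in treated G1 cells. Only 8 barcodes occurred in both libraries. Markers of lymphocytes, myeloid, endothelial, basal and erythroid cells did not reach 5 CPM (counts per 1000000 UMIs) in any comparison described, and COL1A1, a collagen of stromal cells, stood at 16.1 CPM in treated S, 35.0 in treated G2M and 20.4 in treated G1 cells.

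The calls themselves are the rule and are given as a description. Treated cells were called S in 10.2% (95% Clopper-Pearson interval 9.21 to 11.4) and G2M in 1.26% (0.905 to 1.72), against 45.1% S and 18.3% G2M among the 2822 vehicle cells. In all 5985 cells the call followed from the deposited scores, with G1 where both scores were below 0 and otherwise the phase with the higher score. The winning score was below 0.1 in 46 of the 324 treated S cells (14.2%), with 0.000660 as the lowest, and in none of the 40 treated G2M cells, whose lowest was 0.108. Another 48 treated G1 cells (1.71%) stood within 0.1 below the limit. A score is a continuous measure, so a call near the limit is a range of it and not a separate cell type.

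**Figure D1:**
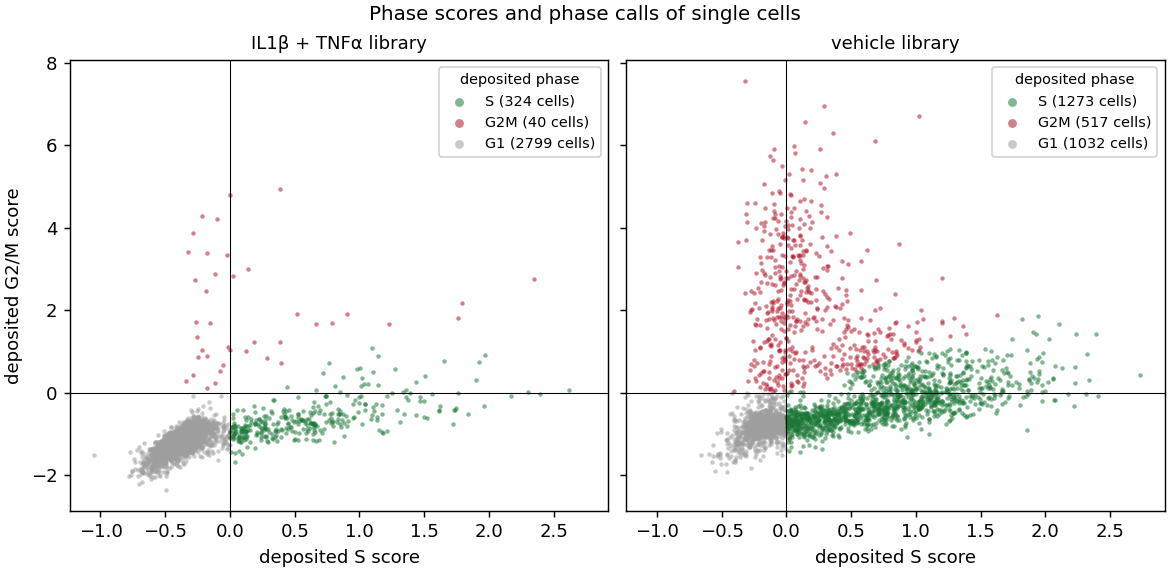
Deposited S score (x axis) and G2M score (y axis) of each cell, with no unit, for the IL1β+TNFα library (left) and the vehicle library (right), each point 1 cell coloured by its deposited phase and lines at 0. Of the treated cells 324 lie in the S region and 40 in the G2M region, against 1273 and 517 of the vehicle cells.

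MKI67 and TOP2A belong to the G2M list and RRM2 to the S list that Seurat provides for such scores, so their levels restate the calls and are given as a description. MKI67 (ENSG00000148773, GRCh38 chr10:128096659-128126423, minus strand, protein-coding), the Ki-67 proliferation antigen, stood at 48.5 CPM (43.6 to 53.9, exact Poisson) in treated S cells, 357 CPM (317 to 400) in treated G2M cells and 2.71 CPM (2.32 to 3.16) in treated G1 cells. In the vehicle library MKI67 was at 113 CPM in S, 364 CPM in G2M and 33.5 CPM in G1 cells. Treated G2M cells were thus at the vehicle level of their phase, treated S cells below theirs, and treated G1 cells the lowest of all groups.

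TOP2A (ENSG00000131747, chr17:40388525-40417896, minus strand), the topoisomerase that untangles chromosomes, was at 12.3 CPM in treated S, 118 CPM in treated G2M and 0.487 CPM in treated G1 cells, against 44.6, 198 and 7.78 CPM in vehicle S, G2M and G1 cells. RRM2 (ENSG00000171848, chr2:10120698-10211725, plus strand), the inducible subunit of ribonucleotide reductase, was at 101 CPM in treated S, 197 CPM in treated G2M and 2.13 CPM in treated G1 cells, against 203 CPM in vehicle S and 187 CPM in vehicle G2M cells. All 3 markers were lowest in treated G1 cells, and all were lower in treated S than in vehicle S cells. Over cells thinned to 15000 UMIs, an MKI67 UMI was found in 124 of 314 treated S cells (39.5%), 33 of 34 treated G2M cells (97.1%) and 91 of 2685 treated G1 cells (3.39%), against 68.7% of vehicle S and 98.7% of vehicle G2M cells. Without thinning the treated shares were 46.0% in S, 100% in G2M and 4.75% in G1. The share in treated G1 cells is the level that cells called G1 in that library show at the same depth.

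Treated S cells were not of 1 kind. The deposited clusters placed 255 of the 324 treated S cells (78.7%) and 26 of the 40 treated G2M cells (65.0%) in cluster 2, which held only 3 treated G1 cells. The other 14 treated G2M cells were in cluster 5. MKI67 was at 60.5 CPM in the 255 treated S cells of cluster 2 and at 2.03 CPM in the 69 treated S cells of other clusters (3 UMIs, exact Poisson interval 0.418 to 5.93), which includes the treated G1 level. Median UMIs of the 50 replication genes per thinned cell were 32.5 in cluster 2 (248 cells) and 17 in the other clusters (66 cells), against 7 in treated G1 cells. The 69 S calls outside cluster 2 thus had MKI67 near the treated G1 level and replication genes between the 2 groups. The clusters come from the same expression data, so this too is a description. The 46 treated S cells with a score below 0.1 had MKI67 at 4.97 CPM, and the other 278 had it at 55.6 CPM. Vehicle S cells outside cluster 2, 733 of 1273, had MKI67 at 57.9 CPM.

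Genes outside the assumed phase lists also differed between the calls. They vary with the scores that picked the cells, so their levels describe the calls and are no separate support for them. The genes behind the deposited scores are not stated, and Seurat's lists of 46 S and 54 G2M genes were assumed. Across the treated cells the mean UMIs of these lists tracked the deposited S score with a Pearson r of 0.935 and the G2M score with 0.564, and across the vehicle cells with 0.978 and 0.946, where depth is shared by both measures. Another 50 replication and 60 mitosis genes outside the assumed lists were counted per thinned cell. The replication genes had a median of 29 UMIs (10th to 90th percentile 15 to 46) in treated S, 28 UMIs in treated G2M and 7 UMIs (3 to 12) in treated G1 cells, against 37 UMIs in vehicle S, 29 UMIs in vehicle G2M and 15 UMIs in vehicle G1 cells. The mitosis genes had a median of 21 UMIs in treated S, 96 UMIs in treated G2M and 9 UMIs in treated G1 cells, against 34, 93 and 20 UMIs in vehicle S, G2M and G1 cells. Over all cells of the phase, treated G2M medians were close to vehicle G2M medians on both counts, with a different mix of clusters given below, whereas treated S cells were lower than vehicle S cells, more so for mitosis genes.

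Most single treated S and G2M cells stood above most treated G1 cells on these counts, which the choice of cells by score favours. Of the thinned treated S cells 288 of 314 (91.7%) held more replication UMIs than the 95th percentile of treated G1 cells, which was 14 UMIs, and 207 (65.9%) held more mitosis UMIs than its limit of 17. All 34 thinned treated G2M cells were above both limits. Vehicle G1 cells were also above them in 53.5% and 60.8% of cells, so they held more of these transcripts than treated G1 cells, whose own values set the limits. Of treated S cells 96 of 314 (30.6%) reached the vehicle S median of replication genes and 56 of 314 (17.8%) reached that of mitosis genes. Of treated G2M cells 14 of 34 (41.2%) and 18 of 34 (52.9%) reached the vehicle G2M medians.

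**Figure D2:**
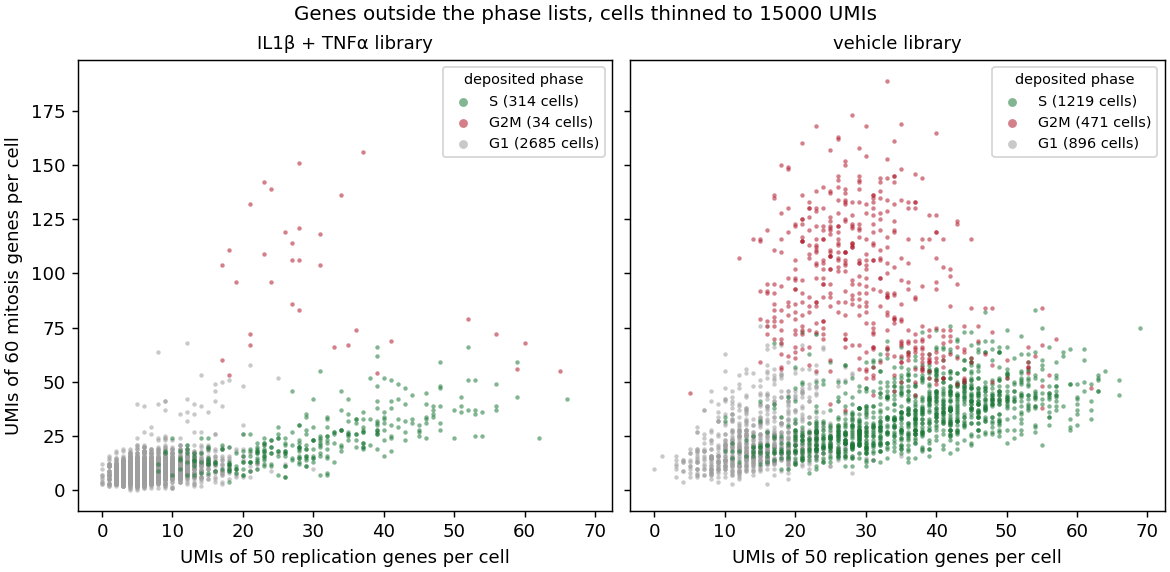
UMIs of the 50 replication genes (x axis) and of the 60 mitosis genes (y axis) in each cell thinned to 15000 UMIs, for the IL1β+TNFα library (left) and the vehicle library (right), each point 1 cell coloured by deposited phase. Treated S and G2M cells lie mostly above the dense treated G1 group with medians of 7 and 9 UMIs, and the lower treated S cells run into it. The vehicle phases run into each other too.

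Against treated G1 cells, treated S cells had higher transcripts of the replication and mitosis lists and lower transcripts of the acute-phase list. Of 8948 genes measured, meaning at 5 CPM or more in either sum, 489 (5.46%) were 2-fold or more above G1 in treated S cells and 94 (1.05%) were 2-fold or more below it, around a median log2 ratio over all genes of 0.05, which TMM factors moved to −0.09. Of the replication list, 46 of 49 measured genes passed 2-fold upward and none downward, with a median log2 ratio of 2.72. Of the mitosis list, 40 of 47 measured genes passed it upward, at a median of 3.11. These genes are outside the assumed phase lists but vary with the cells that the scores picked, so the counts describe these cells.

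MCM10, a replication origin factor, led with 28.1 CPM in treated S cells against 0.260 CPM in treated G1 cells, a log2 ratio of 6.76 or 108-fold. MND1, a recombination cofactor known from meiosis, was at 25.2 CPM against 0.439 CPM, 57.5-fold higher. SGO1, the protector of centromere cohesion, was at 31.6 CPM in treated S cells against 0.796 CPM in treated G1 cells, 39.7-fold higher. E2F1 (ENSG00000101412, chr20:33675477-33686385, minus strand) was at 95.5 CPM (88.5 to 103) in treated S cells against 3.51 CPM (3.06 to 4.01) in treated G1 cells, 27.2-fold higher. The genes that followed were ASF1B, a histone chaperone (26.9-fold), BRCA1, the repair factor (24.5-fold), FAM111B, a protease (24.4-fold), and the RNA gene MIR924HG (24.3-fold). Each of these 8 genes was low in treated G1 cells, between 0.260 and 3.51 CPM, so the fold values rest on small G1 levels.

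Nucleotide supply and chromatin followed in part. Of 29 measured nucleotide synthesis genes 8 were at least 2-fold higher in treated S than in treated G1 cells (5.46% of all genes), with a median log2 ratio of 0.47. TK1, thymidine kinase, stood at 110 CPM in treated S against 6.91 CPM in treated G1 cells, and DUT, which clears dUTP, at 544 against 132 CPM. Of 34 measured histone and chromatin genes 11 were higher and 2 lower, beside 5.46% and 1.05% of all genes. HIST1H4C, a replication-dependent histone H4, was at 486 CPM in treated S and 53.7 CPM in treated G1 cells. Copies of H4 genes are near-identical and mostly lack poly(A) tails, so its level in this poly(A) library is uncertain.

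Of 29 regulators of the G1 step, 10 were at least 2-fold higher in treated S than in treated G1 cells and 1 lower. Over all genes 5.46% were higher and 1.05% lower. CDC25A, the phosphatase that releases CDK2, had a log2 ratio of 2.92, RBL1, a pocket protein that E2F factors induce, 2.68, and CDK2, the S phase kinase, stood at 15.8 against 3.96 CPM. CCNG2, a cyclin associated with arrested cells, was lower, at 16.9 CPM in treated S against 49.6 CPM in treated G1 cells. Other regulators differed by less than 2-fold. CCND1, cyclin D1, was at 761 CPM in treated S against 747 CPM in treated G1 cells, CDKN1A, the inhibitor p21, at 17.5 against 16.3 CPM, CDKN1B, the inhibitor p27, at 33.7 against 33.9 CPM, and MYC at 61.4 against 47.0 CPM. Of 17 measured p53 targets 1 was higher and 1 lower, beside the same shares over all genes. Their median log2 ratio was 0.02, and its sign turned under another scaling.

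The 8 lowest genes in treated S cells were of mixed function. PI3, the elastase inhibitor elafin, stood at 12.9 CPM in treated S against 72.3 CPM in treated G1 cells, 5.61-fold lower. SAA1, an acute-phase apolipoprotein whose reads may be shared with its near-identical neighbour SAA2, was at 41.6 CPM in treated S against 191 CPM in treated G1 cells, a log2 ratio of −2.20. SOD2, the mitochondrial superoxide dismutase that NF-κB induces, was at 42.8 against 144 CPM, 3.36-fold lower. MMP13, a collagenase, had 7.35 against 39.9 CPM, DYRK1B, a kinase of quiescent cells, 6.24 against 24.9 CPM, and DDIT4, a stress-induced mTOR inhibitor, 32.3 against 111 CPM. KRT81, a hair keratin, had 3 UMIs in treated S cells (0.416 CPM) against 21.5 CPM in treated G1 cells, and S100A7, psoriasin, 0.970 against 23.4 CPM. In G1 the UMIs of these last genes came from 178 and 161 cells, and the highest single cell held 22.4% of those of KRT81 and 32.4% of those of S100A7.

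**Figure D3:**
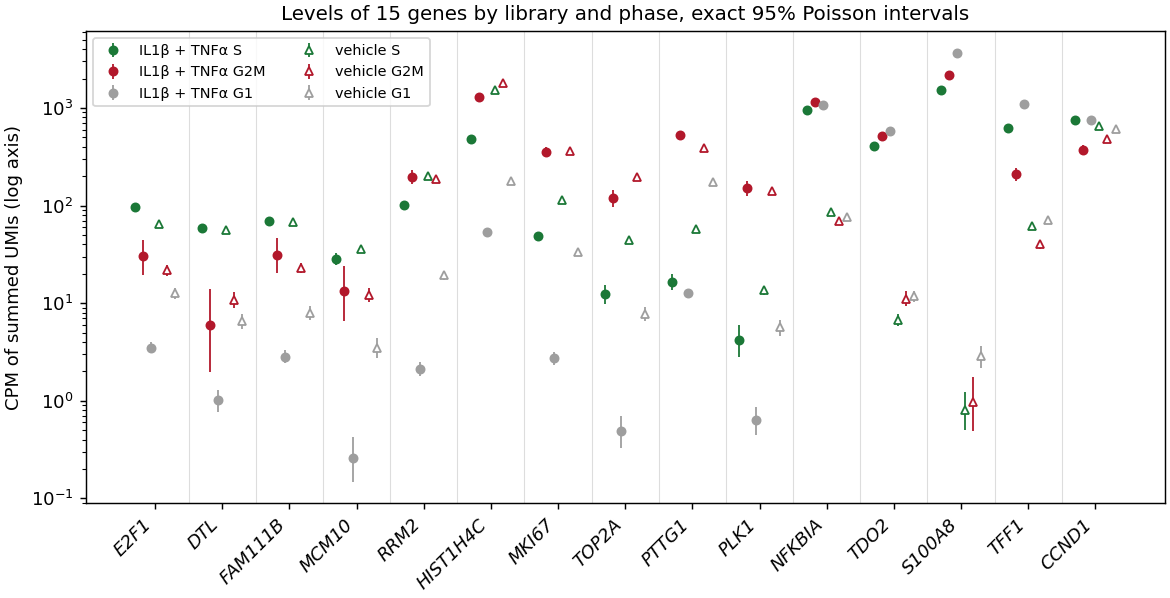
CPM of summed UMIs on a log axis for 15 genes, in S, G2M and G1 cells of the IL1β+TNFα library (filled circles) and of the vehicle library (open triangles), with exact 95% Poisson intervals. E2F1 is at 95.5 CPM in treated S against 3.51 CPM in treated G1 cells, and S100A8 is at 1522 against 3666 CPM.

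Treated G2M cells differed more widely from treated G1 cells, with the machinery of mitosis highest and a lowest set of mixed function. Of 9139 measured genes 1045 (11.4%) lay 2-fold or more above treated G1 cells and 469 (5.13%) lay 2-fold or more below them. With only 40 cells behind the sum, 900 of the higher and 230 of the lower genes had a counting interval that did not reach equality. The split also depended on scaling. The median log2 ratio over all genes was 0.17 with totals and −0.15 with TMM factors, and the counts were then 665 higher and 903 lower. With DESeq2 size factors they were 716 higher and 787 lower. Of the mitosis list, 59 of 60 genes passed 2-fold upward, at a median of 5.34, and of the replication list 45 of 48 with a median of 2.74, both far above the shift between scalings.

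PIF1 had 51 UMIs in treated G2M cells, 61.6 CPM (45.9 to 81.0), against 1 UMI among all treated G1 cells, a log2 ratio of 11.89 with an interval of 9.35 to 17.22. SPC25, a kinetochore subunit, was at 72.5 CPM against 0.0975 CPM, 744-fold higher. KIF20A, a kinesin of cytokinesis, was at 30.2 CPM in treated G2M against 0.0812 CPM in treated G1 cells, and ASPM at 167 against 0.536 CPM. PLK1 (ENSG00000166851, chr16:23677656-23690367) was at 150 CPM (125 to 179) in treated G2M against 0.634 CPM (0.451 to 0.866) in treated G1 cells, 237-fold higher. KIF14, PBK and CCNA2, a kinesin, a mitotic kinase and cyclin A, were 287-fold, 253-fold and 249-fold higher. The promoters printed above for PLK1, PIF1 and ASPM all hold CHR and CCAAT letters, as do 26 of the 53 matched mitosis promoters (49.1%) and 6.58% of all promoters.

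Other groups with a role in division moved the same way in G2M. STMN1, a microtubule destabiliser, stood at 1258 CPM in treated G2M against 87.4 CPM in treated G1 cells, and TUBA1B, an α-tubulin, at 1862 against 186 CPM. PTTG1, securin, was at 525 CPM (476 to 576) in treated G2M against 12.7 CPM (11.8 to 13.6) in treated G1 cells, while treated S cells held only 16.6 CPM. Among 27 measured G1 regulators 6 were at least 2-fold higher and 2 lower, beside 11.4% and 5.13% of all genes. CDKN2C and CDKN2D, inhibitors of CDK4 and CDK6, were at 42.3 and 91.9 CPM in treated G2M cells, against 3.83 and 9.29 CPM in treated G1 cells. CCND1 was lower, at 371 CPM in treated G2M against 747 CPM in treated G1 cells, a log2 ratio of −1.01 (−1.18 to −0.85). Among 18 measured p53 targets 5 were higher and 1 lower, beside the same shares over all genes. GADD45A, a growth arrest gene, was at 27.8 against 11.8 CPM and CDKN1A at 38.7 against 16.3 CPM.

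The lowest genes in treated G2M cells were of mixed function and included the chemokines CCL2 and CXCL8. CCL2, a monocyte chemokine, had 18 UMIs in 9 of the 40 treated G2M cells, 21.8 CPM (12.9 to 34.4), against 112 CPM (110 to 115) in treated G1 cells, 5.16-fold lower. A single treated G2M cell held 38.9% of these UMIs, and 852 of 2799 treated G1 cells had a CCL2 UMI. CXCL8, the neutrophil chemokine IL-8, was at 20.5 CPM against 112 CPM, 5.43-fold lower. TFF1, a secreted trefoil factor, was at 210 CPM (180 to 244) in treated G2M against 1097 CPM in treated G1 cells, 5.22-fold lower, and TFF3 was at 12.1 against 46.5 CPM. SEC14L2, a lipid transfer protein, SLFN5, an interferon-inducible schlafen, MMP13, KRT81 and HIST1H2AE, a histone H2A, completed the lowest set with log2 ratios between −3.12 and −2.32, each on few UMIs. In treated S cells the chemokines did not show this, with CCL2 at 125 CPM and CXCL8 at 99.4 CPM.

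The phase contrast was wider in the treated library than in the vehicle library. Within vehicle cells, 44 of 50 replication genes passed 2-fold upward in S over G1, at a median log2 ratio of 1.76, against 3.78% of all 9094 measured genes higher and 0.363% lower. In vehicle G2M cells 57 of 60 mitosis genes passed 2-fold upward over vehicle G1 cells, at a median of 2.99, against 4.37% of 9160 genes higher and 0.666% lower. Between the libraries it was the G1 cells that differed most in these lists. Of 37 measured mitosis genes 29 were at least 2-fold lower in treated G1 than in vehicle G1 cells, with a median of −2.36, and of 39 replication genes 29 were lower, with a median of −1.51. Over all 9005 genes of that comparison 4.44% were higher and 4.43% lower.

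**Figure D4:**
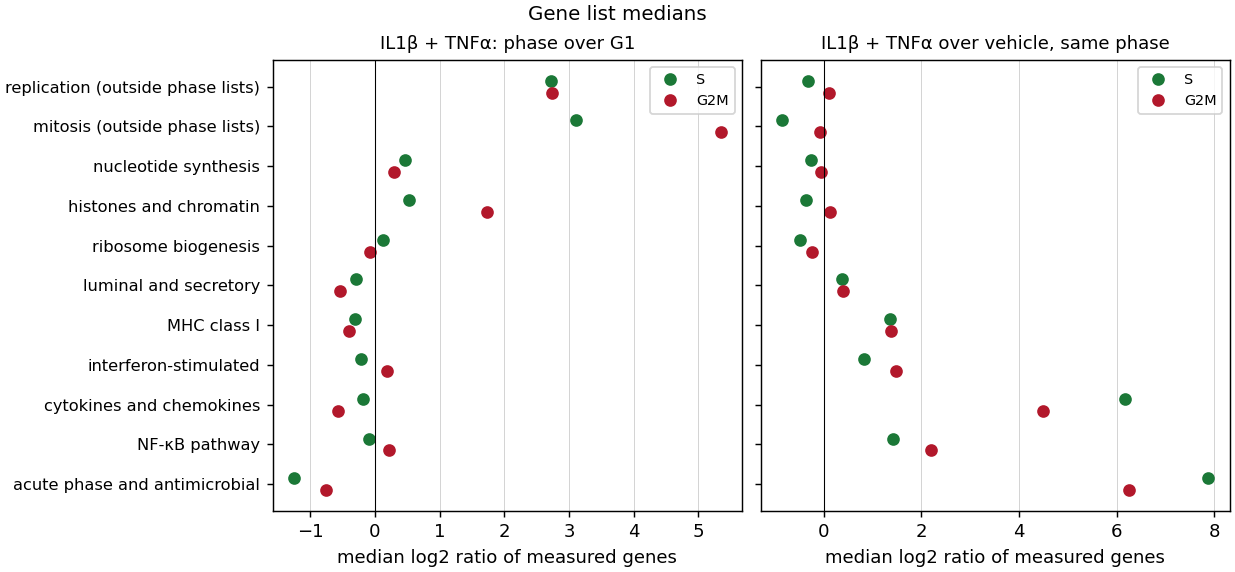
Each list's median log2 ratio over its measured genes (x axis) by list (y axis), for treated S and G2M cells over treated G1 cells and for treated cells over vehicle cells of the same phase, coloured by phase. The replication and mitosis lists lie at 2.72 and above within the treated library and between −0.85 and 0.11 for treated S and G2M cells against their vehicle phases.

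Set beside vehicle cells of the same phase, treated S cells carried replication genes at or somewhat below the vehicle level and mitosis genes further below it. Of 9168 measured genes 295 (3.22%) were 2-fold or more above vehicle S in treated S cells and 196 (2.14%) 2-fold or more below it, around a median log2 ratio of −0.15. With DESeq2 size factors the counts were 365 higher and 130 lower, around a median of −0.03. None of the 50 measured replication genes reached 2-fold in either direction, with a median of −0.32. Of 55 measured mitosis genes 20 were at least 2-fold lower and none higher, with a median of −0.85. These comparisons hold the phase fixed only as far as a call means the same in both libraries.

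Of the 50 replication genes 44 were below equality. The 5 single genes given next were chosen by their S to G1 ratios or after their values were seen, and do not stand for the list. DTL, among them, belongs to the assumed S list and not to the 50 genes, so its level is tied to the calls. E2F1 was at 95.5 CPM in treated S against 64.0 CPM in vehicle S cells, a log2 ratio of 0.58 (0.45 to 0.71). DTL, a substrate receptor of an S phase ubiquitin ligase, was at 58.2 against 56.1 CPM, with a ratio of 0.05 (−0.11 to 0.21). FAM111B was at 68.9 against 67.1 CPM, with a ratio of 0.04 (−0.11 to 0.18), and BRCA1 at 29.1 against 29.3 CPM, with a ratio of −0.01 (−0.24 to 0.21). CCNE1, cyclin E1, was at 9.15 CPM in treated S against 9.40 CPM in vehicle S cells. The intervals of DTL, FAM111B and BRCA1 contain no difference and leave room for changes of up to about the bounds given.

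In the same comparison 54 of 55 mitosis genes were below equality, as were 40 of 46 genes of the S list and all 49 measured genes of the G2M list. Of the list genes, RRM2 had a log2 ratio of −1.01 (−1.12 to −0.90), MKI67 of −1.22 (−1.38 to −1.06) and TOP2A of −1.85 (−2.18 to −1.54). PTTG1 was at 16.6 CPM in treated S against 57.5 CPM in vehicle S cells, 3.46-fold lower, and SKA3, a microtubule attachment factor, at 8.87 against 29.3 CPM. PLK1 was at 4.16 CPM in treated S against 13.5 CPM in vehicle S cells, 3.25-fold lower. HIST1H4C, with the limit given above, was at 486 against 1523 CPM, 3.13-fold lower. Cluster membership moved with these values. In cluster 2, MKI67 was at 60.5 CPM in treated S against 181 CPM in vehicle S cells, and median mitosis UMIs per thinned cell were 24 against 45. Outside cluster 2, MKI67 was at 2.03 against 57.9 CPM.

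Few cycle genes differed 2-fold between treated G2M and vehicle G2M cells when all cells of the phase were summed. Of 60 measured mitosis genes 2 were at least 2-fold lower and none higher, with a median log2 ratio of −0.07, and of 49 replication genes 1 was higher and 2 lower. Over all 9318 measured genes 4.82% were higher and 5.96% lower. MKI67 had a ratio of −0.03 (−0.20 to 0.14) and PLK1 of 0.07 (−0.20 to 0.34). PTTG1 was at 525 CPM in treated G2M against 390 CPM in vehicle G2M cells. PIF1 was the other way, at 61.6 against 98.2 CPM, and TOP2A was 1.67-fold lower. CCNE1, the replication gene that was higher, stood at 8.46 against 2.05 CPM, on few UMIs. The cluster mix differed, with 65.0% of treated G2M cells in cluster 2 against 38.7% of vehicle G2M cells. Within cluster 2, MKI67 was at 390 CPM in the 26 treated G2M cells against 294 CPM in the 200 vehicle G2M cells. Median mitosis UMIs were 95 against 69, over 24 and 195 thinned cells. Within cluster 5, MKI67 was at 276 CPM in the 14 treated G2M cells against 368 CPM in the 164 vehicle G2M cells. Median mitosis UMIs there were 96 against 95, over only 10 and 128 thinned cells. The match of the sums therefore held for a different mix of clusters.

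The cytokine response was present in both cycling groups. S100A8 (ENSG00000143546, chr1:153390032-153391073, minus strand), a subunit of the antimicrobial protein calprotectin, was at 1522 CPM in treated S, 2192 CPM in treated G2M and 3666 CPM in treated G1 cells, against 0.805, 0.982 and 2.84 CPM in vehicle S, G2M and G1 cells. S100A9, the other subunit, was at 2241 CPM in treated S, 2962 CPM in treated G2M and 5027 CPM in treated G1 cells, against 3.33 CPM in vehicle S and 2.95 CPM in vehicle G2M cells. Both genes were higher in all treated phases than in any vehicle phase, and highest in treated G1. Within the treated library the S100A8 log2 ratio was −1.27 (−1.30 to −1.24) for S over G1 and −0.74 for G2M over G1. At 15000 UMIs a cell, S100A8 was found in 95.2% of treated S, 100% of treated G2M and 97.3% of treated G1 cells, against 1.15% of vehicle S and 1.49% of vehicle G2M cells. The treated library holds no cell type known to lack S100A8, so the share that free RNA gives in it was not measured.

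Treated cells with an MKI67 UMI had response UMIs about as often as all treated cells of their phase. Of the 124 thinned treated S cells with an MKI67 UMI, 119 (96.0%, 90.8 to 98.7) also had an S100A8 UMI, 84 (67.7%) a TDO2 UMI and all 124 an NFKBIA UMI. Of the 33 treated G2M cells with an MKI67 UMI, 33 had S100A8 and 27 (81.8%) had TDO2. Among the treated G1 cells with an MKI67 UMI, 86 of 91 (94.5%) had S100A8. In vehicle S cells with MKI67, 11 of 837 (1.31%) had S100A8. S100A8 is found in nearly all treated cells, so these shares are close to those of the phases as a whole, and no background of free RNA was measured for them.

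The acute-phase and antimicrobial list was lower in cycling cells than in treated G1 cells. In treated S cells 10 of 12 measured genes were at least 2-fold lower than in treated G1 cells (1.05% of all genes), with a median log2 ratio of −1.25. In treated G2M cells 4 of 13 were (5.13% of all genes), with a median of −0.76. Against vehicle cells of the same phase, 8 of 9 measured genes were at least 2-fold higher in S (3.22% of all genes), with a median of 7.88. In G2M 12 of 12 were (4.82% of all genes), with a median of 6.26. A gene counts as measured by either sum, and 4 of the 9 genes in S and 7 of the 12 in G2M had no vehicle UMI. Such genes entered through the treated sum alone, so that passing 2-fold was fixed by the limit. Their ratios rest on the floor of 3 UMIs, and the counts are a description. Per thinned cell the list had a median of 31 UMIs (10th to 90th percentile 6 to 163) in treated S, 55.5 UMIs (12 to 189) in treated G2M and 78 UMIs (13 to 351) in treated G1 cells, against 1 UMI in vehicle S cells and 0 in vehicle G2M cells. The treated phases overlapped over most of their range. Within thinned treated S cells the median was 29.5 UMIs in cluster 2 (248 cells) and 45 UMIs in the other clusters (66 cells). In thinned treated G2M cells it was 36 UMIs in cluster 2 (24 cells) and 165 UMIs in cluster 5 (10 cells). Thinned treated G1 cells of cluster 5, 101 of 118, had a median of 81 UMIs.

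Several members of that list were seen in treated cells alone. LCN2, the siderophore-binding lipocalin, was at 25.8 CPM in treated S, 45.9 CPM in treated G2M and 46.1 CPM in treated G1 cells, with 0 UMIs in vehicle cells of every phase. SAA1 likewise had no UMI in vehicle cells. With the vehicle sum set to a floor of 3 UMIs over the group, treated S cells were 379-fold higher and treated G2M cells 406-fold higher. SERPINA3, an acute-phase protease inhibitor, was at 24.4 CPM in treated S, 20.5 CPM in treated G2M and 57.1 CPM in treated G1 cells. CFB, complement factor B, was at 42.7 CPM in treated S, 39.9 CPM in treated G2M and 71.2 CPM in treated G1 cells, with 1 UMI in vehicle S cells. Except for LCN2 in G2M, each of these genes was lower in cycling than in G1 treated cells.

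Genes of the NF-κB pathway list, which holds subunits, inhibitors and signalling genes apart from the acute-phase list, differed much less by phase. Of 25 measured genes none was at least 2-fold higher and 1, SOD2, was at least 2-fold lower in treated S than in treated G1 cells (1.05% of all genes lower). Their median log2 ratio was −0.09. In treated G2M over treated G1 cells 1 of 26 was higher and 1 lower, beside 11.4% and 5.13% of all genes. The median was 0.21, and its sign turned under another scaling. Against vehicle, 17 of 25 were at least 2-fold higher in S (3.22% of all genes) and 18 of 26 in G2M (4.82% of all genes), with medians of 1.42 and 2.20. NFKBIA, the inhibitor that NF-κB induces against itself, was at 944 CPM in treated S, 1140 CPM in treated G2M and 1082 CPM in treated G1 cells, against 86.2 CPM in vehicle S and 68.7 CPM in vehicle G2M cells. RELB, an NF-κB subunit, was at 29.7 CPM in treated S, 33.8 CPM in treated G2M and 28.1 CPM in treated G1 cells, and BIRC3, an inhibitor of cell death, at 39.8, 42.3 and 39.0 CPM in the same order. In vehicle S cells RELB was at 0.329 CPM. Per thinned cell the list had a median of 26 UMIs in treated S, 32 UMIs in treated G2M and 31 UMIs in treated G1 cells, against 7 UMIs in each vehicle phase.

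**Figure D5:**
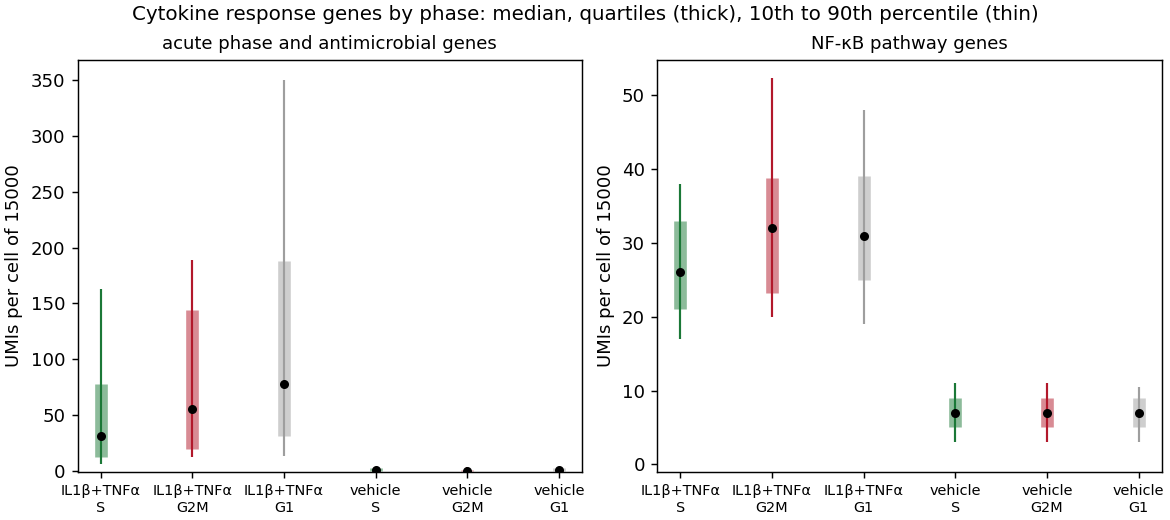
UMIs per cell thinned to 15000 UMIs for lists of the cytokine response (a panel for each list), by phase in the IL1β+TNFα library and then in the vehicle library, with the median as a point, the quartiles as a thick bar and the 10th to 90th percentiles as a thin bar. Acute-phase genes have medians of 31, 55.5 and 78 UMIs in treated S, G2M and G1 cells, whereas NF-κB pathway genes have 26, 32 and 31 UMIs.

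Cytokines and chemokines followed the NF-κB pathway list in S but not in G2M. Of 12 measured genes 1 was at least 2-fold lower in treated S than in treated G1 cells (1.05% of all genes). Of 13 measured in treated G2M over treated G1 cells 1 was higher and 5 lower, beside 11.4% and 5.13% of all genes. LTB, lymphotoxin β, was at 291 CPM in treated S, 184 CPM in treated G2M and 272 CPM in treated G1 cells, with no UMI in the vehicle phases. With the vehicle sum set to the floor of 3 UMIs, treated S cells were 2656-fold higher than vehicle S cells. TNF was at 42.3 CPM in treated S, 24.2 CPM in treated G2M and 37.2 CPM in treated G1 cells, again with no vehicle UMI. The added protein is not measured here, since the reads come from the cells' own transcripts. Against vehicle, 9 of 11 measured genes were at least 2-fold higher in S (3.22% of all genes) and 9 of 12 in G2M (4.82%). Of these measured genes 4 in S and 6 in G2M had no UMI in 1 of the 2 sums, so their ratios rest on the floor. The list's total was lower in treated cells, with medians of 76 UMIs per thinned cell in treated S and 74 in treated G2M cells. Vehicle S and vehicle G2M cells had medians of 96 and 92. Its most abundant member, MIF, macrophage migration inhibitory factor, was at 4507 CPM in treated S against 6379 CPM in vehicle S cells.

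The kynurenine enzymes TDO2, KMO and KYNU were far higher in cycling treated cells than in cycling vehicle cells, and differed by less than 2-fold between the treated phases. TDO2, which opens the tryptophan ring, was at 403 CPM (389 to 418) in treated S, 521 CPM (473 to 573) in treated G2M and 582 CPM (576 to 588) in treated G1 cells, against 6.73 CPM in vehicle S and 11.2 CPM in vehicle G2M cells. That is 59.9-fold higher in treated S and 46.7-fold higher in treated G2M than in the vehicle phase, with log2 ratios over treated G1 of −0.53 (−0.58 to −0.47) and −0.16 (−0.30 to −0.02). KMO, the kynurenine hydroxylase, was at 151 CPM in treated S, 149 CPM in treated G2M and 255 CPM in treated G1 cells, and KYNU, kynureninase, at 55.3 CPM in treated S, 65.3 CPM in treated G2M and 71.7 CPM in treated G1 cells. A TDO2 UMI was found in 66.2% of thinned treated S, 82.4% of treated G2M and 68.9% of treated G1 cells, against 3.61% of vehicle S and 5.10% of vehicle G2M cells. Of 9 pathway genes measured, none reached 2-fold between treated S and treated G1 cells while against vehicle S cells 3 passed 2-fold upward (3.22% of all genes) and 1, the amino acid transporter gene SLC7A5, passed it downward (2.14% of all genes).

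Luminal keratins and secreted proteins were lower in cycling than in G1 treated cells. The list had a median of 173 UMIs per thinned cell in treated S, 128.5 UMIs in treated G2M and 227 UMIs in treated G1 cells, against 104, 87 and 124 UMIs in vehicle S, G2M and G1 cells. None of its 24 measured genes was 2-fold lower in treated S than in treated G1 cells, and 5 were in treated G2M (5.13% of all genes). KRT7, a simple epithelial keratin, was at 1076 CPM in treated S, 599 CPM in treated G2M and 1587 CPM in treated G1 cells, and KRT19 at 1201 CPM in treated S, 707 CPM in treated G2M and 1913 CPM in treated G1 cells. TFF1 was at 621 CPM in treated S and 210 CPM in treated G2M cells, against 61.2 CPM in vehicle S and 39.9 CPM in vehicle G2M cells. Even in G2M, where TFF1 was lowest among the treated phases, it was 5.27-fold above vehicle.

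A set of genes was lower in the cycling treated cells than in cycling vehicle cells. IGFBP5, a binder of insulin-like growth factors, was at 50.3 CPM in treated S against 319 CPM in vehicle S cells, 6.34-fold lower, and at 27.8 against 279 CPM in G2M, 10.0-fold lower. SLC1A7, a glutamate transporter, was at 33.7 against 156 CPM in S and at 13.3 against 184 CPM in G2M. ID1, an inhibitor of basic helix-loop-helix factors, was at 252 CPM in treated S against 1050 CPM in vehicle S cells, and at 622 against 1101 CPM in G2M, so that it was 2.14-fold higher in treated G2M than in treated G1 cells (291 CPM). PLPP4, a lipid phosphatase, S100A10, an annexin partner, and RDH10, a retinol dehydrogenase, were lower in S with log2 ratios of −1.98, −1.70 and −1.67. In G2M the lowest also held DUSP2, FIRRE, ZNF704, EPHA4 and IRS1, with ratios between −3.12 and −2.00 on few UMIs.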

How the data were processed

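The deposited counts are UMIs per gene and cell for both libraries, made by the authors with Cell Ranger 3.1.0 on GRCh38 and Seurat 4.0.4 (versions from the submitters' processing notes). The authors describe keeping genes seen in at least 10 cells, although 328 of the 16251 genes deposited have a UMI in fewer. They kept cells with 3000 to 5000 genes, fewer than 50000 UMIs and a mitochondrial percent below 15, a percent they deposited per cell. The S score and G2M score, the phase and the cluster of each cell were used as the authors deposited them. The authors integrated both libraries with sctransform in Seurat, with the S minus G2M score difference removed, for display. The gene lists and input behind the scores, and how the clusters were called, are not given in the sources used here, so Seurat's own phase lists were assumed. No doublet caller was run, and none is stated.

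UMIs were summed over the cells of each library and phase and given as counts per 1000000 UMIs (CPM) with exact Poisson intervals at 95%. Ratios of sums have exact conditional binomial intervals, and a sum at 0 was set to a floor of 3 UMIs. A gene was measured at 5 CPM in either sum and counted at 2-fold. Shares of cells and UMIs per list came from cells thinned without replacement to 15000 UMIs, which left out 10 treated S, 6 treated G2M and 114 treated G1 cells, and 54 vehicle S, 46 vehicle G2M and 136 vehicle G1 cells. The text names fixed genes, the 8 highest and 8 lowest ratios outside the phase lists at 20 CPM or more, and up to 4 members of each list with the largest ratios. Other genes named, among them IFIT2, IFIT3 and ISG15, were chosen after their values were seen. The cells and the 23 gene lists were chosen with earlier results of these data known.

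Alternatives were TMM factors (edgeR 4.0.16) and DESeq2 1.42.0 size factors as scalings, other limits on low counts, other thinning depths, cells away from the score limit, phases called again (scanpy 1.11.5), and, chosen after seeing the data, counting intervals that exclude equality. Sums were made with Python 3.11.15, numpy 2.4.6 and scipy 1.17.1, and the computations were tested on simulated data. Promoters and their motif matches came from RefSeq on GRCh38.p14. The authors give their own build as GRCh38.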

Additional observations from a re-analysis of the deposited data

Results flagged for a closer look

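IFIT1, an interferon-induced RNA-binding protein, had opposite signs in different phases when treated cells were set against vehicle cells. Its log2 ratio was −0.82 in S, 2.76 in G2M and 5.01 in G1. The G2M value rested on 3 UMIs in 2 treated cells, against 6 UMIs in vehicle G2M cells. OASL, an interferon-induced antiviral protein, had −3.01 in S and 6.88 in G1. The difference between phases was not tested. A single vehicle S cell held 119 of the 122 OASL UMIs (97.5%) and 103 of the 107 IFIT1 UMIs (96.3%) of its group, and it was the highest cell for 5 of 5 interferon-stimulated genes looked at, with 70 of 73 IFIT2, 121 of 124 IFIT3 and 1229 of 4048 ISG15 UMIs (30.4%). OASL had 4 UMIs in 2 treated S cells, against 3 UMIs in vehicle S cells without that cell. IFIT1 had 16 UMIs in 12 treated S cells, against 4 UMIs in vehicle S cells without it. These counts come from unequal totals, 7212661 UMIs in treated S and 27339863 UMIs in vehicle S cells. With the highest cell of each group left out, IFIT1 was at 1.95 CPM in treated S and 0.146 CPM in vehicle S cells. OASL was then at 0.139 and 0.110 CPM, on 1 and 3 UMIs. The negative ratios in S thus rested on that vehicle cell.

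CHAF1B, a subunit of the chromatin assembly factor of replication, had a log2 ratio of 1.12 for treated over vehicle cells in G2M and −1.62 in G1. The treated G2M value rested on 17 UMIs in 11 cells, against 106 UMIs in vehicle G2M cells, and the difference was not tested.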

How the results depend on the processing

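Counts of genes moved with the limit on low values and with scaling. For treated S over treated G1 cells, a limit of 1 CPM gave 775 higher and 272 lower genes, and 20 CPM gave 224 and 32, with a mitosis median of 2.02 over 16 genes. For treated G2M over treated G1 cells, TMM gave 665 higher and 903 lower, DESeq2 factors 787 lower, 1 CPM 2449 higher, 20 CPM 527 higher and 116 lower, and intervals excluding equality 230 lower. For treated S over vehicle S cells, DESeq2 factors gave 130 lower, 1 CPM 571 higher and 496 lower, and 20 CPM 152 and 67. For treated G2M over vehicle G2M cells, 1 CPM gave 1389 higher, 20 CPM 175 higher and 87 lower with an acute-phase median of 7.22 over 9 genes, and intervals excluding equality 201 lower. KRT81, with 3 UMIs in treated S cells, turned in sign against vehicle S cells to 0.24 when phases were called again. Of 7807 values of named genes 7426 stayed close and 380 moved, as did 2 of 160 list medians. The share of treated S cells with MKI67 was 25.9% at 7500 UMIs, 46.0% without thinning, 18.5% at 2 UMIs or more and 45.6% among clear calls. For TOP2A it was 10.5% at 7500 UMIs and 2.55% at 2 UMIs or more, and for RRM2 38.9%, 32.5% and, among clear calls, 58.2%. In treated G2M cells MKI67 was at 100% without thinning, and RRM2 at 57.5% for 7500 UMIs and 50% for 2 UMIs or more. Calling each library alone put 15.6% of treated cells in S or G2M. Called again on thinned counts of both libraries, 319 treated cells were S and 42 were G2M, of which 300 and 32 carried the same deposited call. Of the 2586 thinned vehicle cells 638 were then G2M, against 471 by the deposited call, and 767 were G1, against 896. No paired analysis was possible because each condition is 1 library. The 40 treated G2M cells limit the precision of low genes.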

Other observations

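Genes of antigen presentation and of the interferon response were raised in cycling treated cells too. Of 14 measured genes of MHC class I presentation 10 were at least 2-fold higher in treated S than in vehicle S cells, with a median log2 ratio of 1.36 (3.22% of all genes), and 11 of 15 in G2M, with a median of 1.37 (4.82% of all genes). HLA-B, a class I heavy chain whose reads may be shared with other class I genes, was at 18.7 CPM in treated S, 26.6 CPM in treated G2M and 34.6 CPM in treated G1 cells, against 1.90 CPM in vehicle S and 1.61 CPM in vehicle G2M cells. None of 16 measured genes of the list reached 2-fold between treated S and treated G1 cells. Of 16 interferon-stimulated genes 5 were higher in S, where the vehicle cell described above is included, and 10 were higher in G2M than in the vehicle phase, beside the same shares over all genes.

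Few genes of ribosome biogenesis reached 2-fold. Of 38 measured, 1 was at least 2-fold lower and none higher in treated S than in vehicle S cells (2.14% of all genes lower), while 36 were below equality, with a median log2 ratio of −0.48 beside −0.15 over all genes. In G2M none reached 2-fold. Of 23 secretory stress genes 19 were below equality in treated S over treated G1 cells, with 2 at least 2-fold lower (1.05% of all genes) and 1 higher (5.46%). HSPA5, the main chaperone of the endoplasmic reticulum, was at 53.7 CPM in treated S, 105 CPM in treated G2M and 113 CPM in treated G1 cells. None of 15 immediate early genes reached 2-fold between the phases of the treated library.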
